A study of Mus musculus with 3 samples.

Results

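Monocyte-like nuclei were counted in the livers of mice with MASH-related liver fibrosis and in a control liver, and 238 of 28336 nuclei (0.840%) met the definition. They were selected by measured values, so the genes that define them describe the selection and are not results. A nucleus was a member when UMIs (unique molecular identifiers, each standing for 1 captured RNA molecule) of at least 2 different genes among F13a1, Ccr2, Itgam, Cx3cr1, Gpr141, Cd244a, Plac8 and S100a4 made up at least 0.1% of its UMIs. It also had no UMI of Flt3, a receptor of dendritic cells and their progenitors, and none of Clec4f or Timd4, which mark resident Kupffer cells. At most 1 of 8 further genes was allowed, namely the endothelial genes Stab2, Ptprb and Kdr, the stellate cell genes Reln and Dcn, the T cell gene Skap1, the B cell gene Bank1 and the macrophage gene Gpnmb.

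Nuclei came from frozen liver of 1 mouse on a normal diet (ND) and 2 mice (STZ-HFHC mouse 1 and STZ-HFHC mouse 2) with fibrosis. All were male C57BL/6 J mice, and no transgene or gene deletion is described for them. The STZ-HFHC mice had received 0.2 mg of streptozocin under the skin at 3 days of age, which destroys the insulin-producing islets, and a diet high in fat and cholesterol (41 kcal% fat and 43 kcal% carbohydrate) from 4 weeks of age. Age at sampling of these 3 mice is not given in the sources used here. Each mouse gave 1 library made with 10x 3' v3.1 chemistry. After barcodes with under 200 or over 5000 genes or over 5% mitochondrial UMIs were removed, 8494 nuclei of ND, 8921 of STZ-HFHC mouse 1 and 10921 of STZ-HFHC mouse 2 were left, with a median of 4068, 3015 and 4027 UMIs. The label of the ND library begins its code with 3rd and those of the STZ-HFHC libraries with 2nd, the meaning of which is not stated. Diet, streptozocin and library therefore cannot be told apart, and with 1 ND mouse no test between groups was made.

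Monocytes leave the bone marrow, circulate in blood and enter injured tissue, where they can become macrophages or dendritic cells. In mice, classical monocytes carry much Ccr2, the receptor for the chemokine Ccl2 through which they leave the marrow and are drawn to sites of injury. Non-classical monocytes carry much Cx3cr1, the receptor for fractalkine, and patrol the vessel wall. In the liver they are distinct from the self-renewing Kupffer cells, whose niche they can fill when Kupffer cells are lost.

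Among the genes that define the class, F13a1 encodes the A subunit of coagulation factor XIII, which cross-links fibrin. Itgam encodes CD11b, the alpha chain of a leukocyte integrin. Gpr141 encodes an orphan G protein-coupled receptor. The sequences upstream of these 3 genes are shown because their transcripts define the members. Each is the 250 bases before the first RefSeq start listed (GRCm38.p6), 5′ to 3′ on the strand of the gene, with any GAGGAA or its reverse complement TTCCTC in capitals. GAGGAA is the core bound by PU.1, the ETS factor of the myeloid lineage encoded by Spi1. They lie at chr13:37050245-37050494 (minus strand, F13a1), chr7:128062390-128062639 (plus strand, Itgam) and chr13:19824258-19824507 (minus strand, Gpr141).
F13a1: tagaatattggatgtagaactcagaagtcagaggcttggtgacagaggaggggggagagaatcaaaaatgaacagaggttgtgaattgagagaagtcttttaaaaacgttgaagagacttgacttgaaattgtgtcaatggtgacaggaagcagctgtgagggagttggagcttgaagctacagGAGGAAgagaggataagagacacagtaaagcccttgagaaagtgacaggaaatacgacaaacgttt
Itgam: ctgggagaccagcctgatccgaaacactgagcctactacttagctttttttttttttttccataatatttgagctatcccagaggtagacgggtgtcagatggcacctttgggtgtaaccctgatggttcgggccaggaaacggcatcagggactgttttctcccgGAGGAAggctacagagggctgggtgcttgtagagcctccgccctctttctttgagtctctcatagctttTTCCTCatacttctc
Gpr141: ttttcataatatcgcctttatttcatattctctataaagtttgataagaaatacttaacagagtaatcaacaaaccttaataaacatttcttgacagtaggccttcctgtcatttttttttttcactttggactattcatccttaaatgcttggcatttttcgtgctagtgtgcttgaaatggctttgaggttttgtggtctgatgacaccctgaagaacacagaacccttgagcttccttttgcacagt
The letters occurred 1 time upstream of F13a1, 2 times upstream of Itgam and 0 times upstream of Gpr141. F13a1 has another RefSeq start, at whose upstream window (chr13:37049214-37049463) there were 0 matches. Of the 8 defining genes, 3 (37.5%) had a match in at least 1 upstream window (F13a1, Itgam and Plac8), beside 6986 of all 27025 genes (25.9%). A match is a run of letters and not a measured binding site.

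Monocyte-like nuclei made up 4 of 8494 nuclei in ND, 154 of 8921 in STZ-HFHC mouse 1 and 80 of 10921 in STZ-HFHC mouse 2. The shares were 0.0471% (exact binomial 95% interval 0.0128–0.121), 1.73% (1.47–2.02) and 0.733% (0.581–0.911). The STZ-HFHC libraries thus held 234 of the 238 members (98.3%), and their shares averaged 1.23% ± 0.703 (SD, n = 2), 26.1 times the ND share. The share was 36.7 times that of ND in STZ-HFHC mouse 1 (14.0–136) and 15.6 times in STZ-HFHC mouse 2 (5.84–58.5). The intervals cover counting error only, not the spread between ND mice, of which there was 1. The 2 STZ-HFHC mice differed from each other by 2.36 times, and their intervals did not overlap.

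Other myeloid nuclei were also more frequent in the STZ-HFHC libraries. Kupffer-like nuclei, defined by Clec4f or Timd4 with further Kupffer genes, numbered 35 in ND, 157 in STZ-HFHC mouse 1 and 122 in STZ-HFHC mouse 2. Gpnmb macrophage-like nuclei, defined by Gpnmb with other genes of lipid-laden macrophages and not meeting the rule for members, numbered 0, 256 and 75. Dendritic-like nuclei numbered 6, 61 and 33. Of the nuclei in these 4 classes, members were 8.89% in ND (2.48–21.2), 24.5% in STZ-HFHC mouse 1 (21.2–28.1) and 25.8% in STZ-HFHC mouse 2 (21–31.1). Within the myeloid nuclei, the shares of members in the 2 STZ-HFHC mice therefore lay within each other's intervals, although their shares of all nuclei did not.

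**Figure D1:**
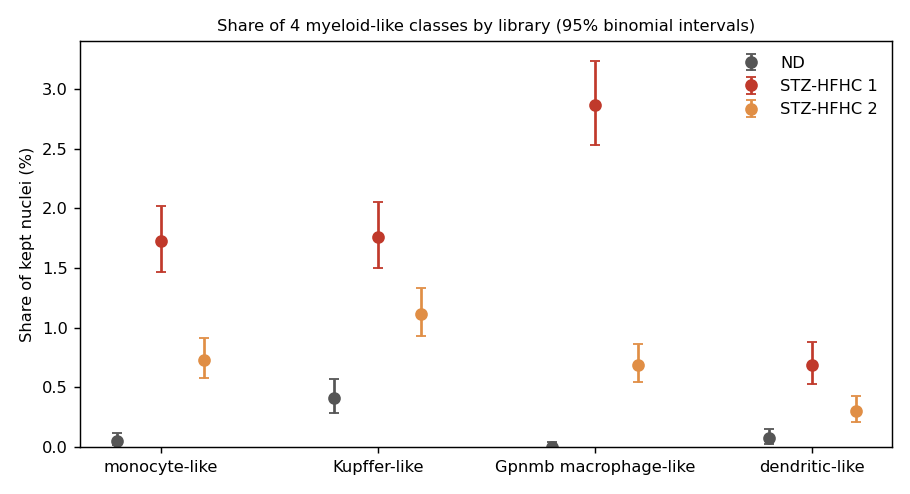
Share of kept nuclei (%) in 4 myeloid-like classes for ND, STZ-HFHC mouse 1 and STZ-HFHC mouse 2; points are libraries and bars are exact binomial 95% intervals. Monocyte-like nuclei lie at 0.0471%, 1.73% and 0.733%.

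The 4 nuclei of ND held UMIs of 3 of the 5 markers given with the label. Between them they had 11 UMIs of Gpr141, 3 of Ccr2, 3 of Cd244a, 1 of Itgam and 1 of Plac8, and none of F13a1, Cx3cr1 or S100a4. Against these 19 UMIs of defining genes stood 23 UMIs of dendritic cell markers, led by Wdfy4, which dendritic cells use in cross-presentation, with 9. The 4 nuclei held 6209 UMIs in all, too few for a level, and no level within members is given for ND. The part that nuclei with dendritic markers play in the ND share was not tested.

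The rule acted in steps. In STZ-HFHC mouse 1, 619 nuclei had UMIs of at least 2 defining genes, 379 also reached the 0.1% share, 343 lacked Flt3 and 309 lacked Clec4f and Timd4. In STZ-HFHC mouse 2 the numbers were 396, 199, 174 and 144, and in ND they were 38, 10, 9 and 8. The limit on the 8 further genes then removed 155 nuclei in STZ-HFHC mouse 1 and 64 in STZ-HFHC mouse 2. Among these genes, Stab2 and Ptprb had a UMI in the most nuclei of STZ-HFHC mouse 1 and of STZ-HFHC mouse 2. Hepatocyte-rich nuclei were among the 25% of each library with the highest share of hepatocyte UMIs and outside the myeloid-like classes. They serve as a comparison class. The part of free RNA in their values was not measured. Stab2 had a UMI in 42.7% and 45.1% of the nuclei before this step in the 2 STZ-HFHC mice, in 23.4% and 25% of members, and in 50.4% and 53.6% of hepatocyte-rich nuclei, whose median depth was 7342 and 7042 UMIs. The part of free RNA in this loss was not tested.

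Close to the threshold, the lowest members had 0.101% and 0.107% of their UMIs in defining genes in STZ-HFHC mouse 1 and STZ-HFHC mouse 2. The highest nuclei outside it on this share alone, 21 and 27 in number, reached 0.0970% and 0.0996%. Their median depth was 4442 and 5665 UMIs, against 1734 and 1638 in members, so a fixed share admits shallow nuclei with fewer UMIs of the genes. Members had a median of 0.266% and 0.242% of their UMIs in the 8 genes. At least 3 different genes were found in 93 members of STZ-HFHC mouse 1 (60.4%) and 33 of STZ-HFHC mouse 2 (41.25%). Only 2 UMIs of the defining genes stood behind 28 (18.2%) and 20 members (25%).

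**Figure D2:**
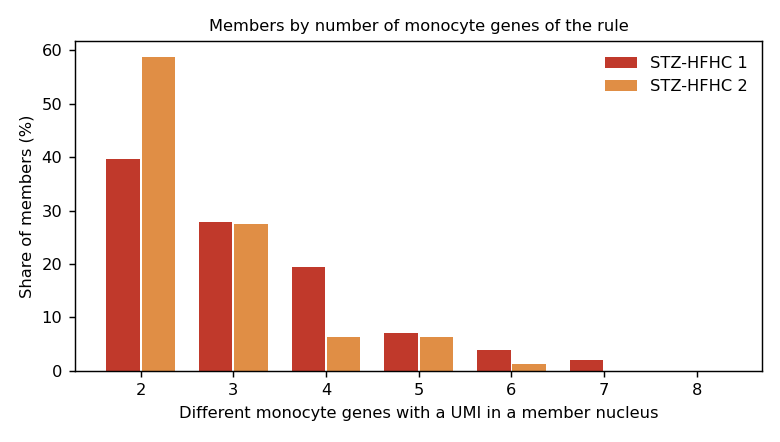
Share of members (%) by the number of different defining monocyte genes with a UMI, in STZ-HFHC mouse 1 and STZ-HFHC mouse 2. Exactly 2 genes were found in 61 and 47 members, and 3 or more in 60.4% and 41.25%.

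Members were shallower than nuclei outside the myeloid-like classes, as were Kupffer-like and Gpnmb macrophage-like nuclei. Median depth in members was 1734 UMIs (range 700–5225) in STZ-HFHC mouse 1 and 1638 (613–3927) in STZ-HFHC mouse 2, with 1225 and 1150.5 genes. Kupffer-like nuclei had a median of 1494 and 1558 UMIs, Gpnmb macrophage-like nuclei 1625 and 2017, and nuclei outside the 4 myeloid-like classes 3336 and 4180. Mitochondrial UMIs had a median of 0.354% and 0.194% in members, above the 0.0684% and 0.0412% of nuclei outside the 4 myeloid-like classes. The other myeloid-like classes were also below members. Their medians were 0.0959% and 0.0789% in Kupffer-like, 0.136% and 0.0810% in Gpnmb macrophage-like and 0.167% and 0.105% in dendritic-like nuclei. Members of different libraries shared 0 barcodes. Of all nuclei kept, 20 to 27 barcodes were shared between each pair of libraries, among them 1 barcode of a member from STZ-HFHC mouse 1 that was also kept in STZ-HFHC mouse 2.

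The 5 genes given as markers with the label had UMIs in members of both STZ-HFHC mice. Ccr2 summed to 452 CPM (UMIs per 1000000 UMIs of the same nuclei) in STZ-HFHC mouse 1 and 308 in STZ-HFHC mouse 2, against 3.69 and 2.13 CPM in hepatocyte-rich nuclei. F13a1 stood at 896 and 947 CPM, against 2.04 and 1.23. Gpr141 stood at 855 and 947 CPM, Itgam at 236 and 168, and Cx3cr1 at 185 and 119. Of the other defining genes, Plac8, a small cysteine-rich protein of myeloid cells, reached 551 and 386 CPM. Cd244a, a receptor of the SLAM family, reached 263 and 344 CPM, and S100a4, a calcium-binding protein, 61.6 and 28.0 CPM. Outside the members, dendritic-like nuclei held Ccr2 at 124 and 137 CPM and Gpr141 at 371 and 160 CPM. Both Kupffer-like and Gpnmb macrophage-like nuclei had no more than 66.2 CPM of any of the 5 marker genes. Nuclei that met the rule for members were left out of the Gpnmb macrophage-like and hepatocyte-rich classes. Low values of the defining genes in those classes therefore follow in part from the assignment.

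Detection was sparse for single genes at this depth. With every nucleus thinned to 1000 UMIs, 140 of 154 members of STZ-HFHC mouse 1 and 69 of 80 of STZ-HFHC mouse 2 could be used. F13a1 then had a UMI in 41.4% (33.2–50.1) and 29.0% of them (18.7–41.2), against 0.146% and 0.190% of hepatocyte-rich nuclei. Ccr2 had one in 29.3% and 29.0%, against 0.632% and 0.228%. Gpr141 had one in 47.9% and 65.2% of members, against 0.632% and 0.304%. These genes belong to the rule, and hepatocyte-rich nuclei exclude members, so the contrasts describe the selection and are not results. Before thinning, F13a1 was found in 48.7% and 32.5% of members and Ccr2 in 45.5% and 38.75%. Median depth before thinning was 7342 and 7042 UMIs in hepatocyte-rich nuclei.

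**Figure D3:**
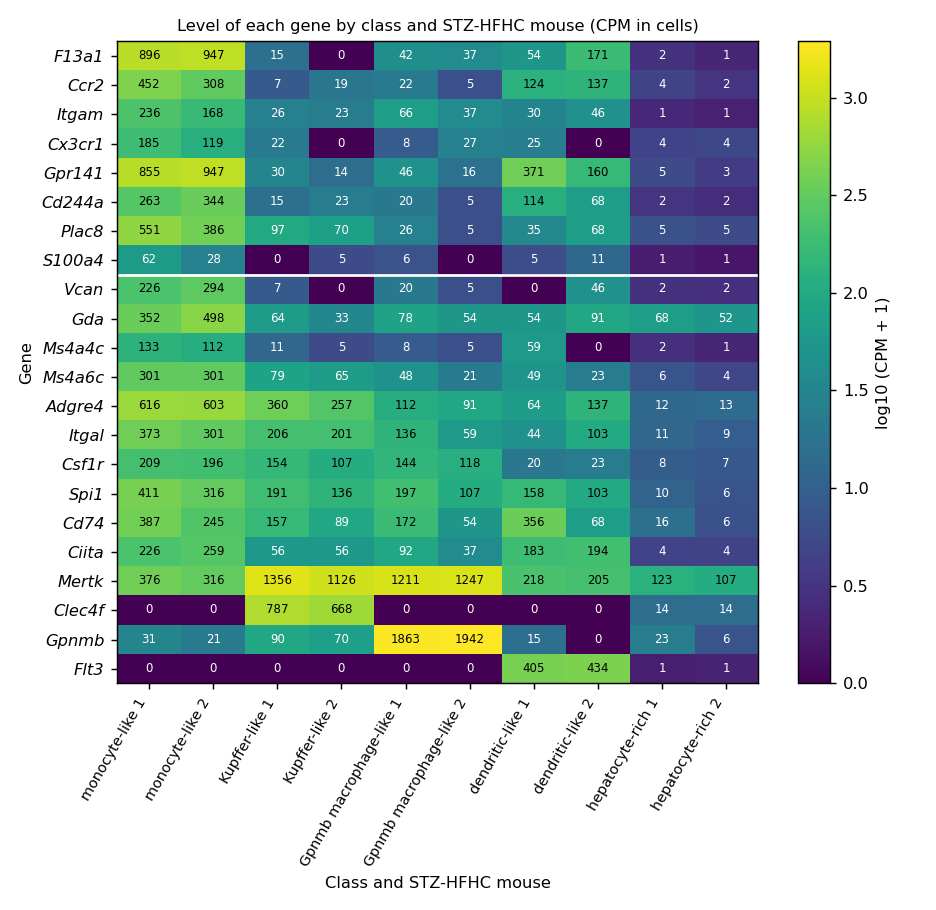
Level of each gene as log10 (CPM + 1) in colour, with CPM in the cells, for 5 classes in STZ-HFHC mouse 1 and STZ-HFHC mouse 2; genes above the white line are the 8 that define members. F13a1 stands at 896 and 947 CPM in members and at no more than 171 CPM in any other class shown.

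Genes outside the rule give a view of the members that the selection did not fix directly, although it used the same nuclei. In each STZ-HFHC mouse the summed UMIs of members were compared with those of another class of the same library. A gene was called when it had at least 50 UMIs over both classes and mice and its CPM differed at least 4-fold (log2 ratio of at least 2, 0.5 added to each count) in the same direction in both mice. This is a rule of size and not a test. Against all other kept nuclei, 16143 genes had enough UMIs, and 975 (6.04%) were higher and 46 (0.285%) lower in members. Of the 975, 78 had no UMI in members at all and passed only through the 0.5 added to a shallow sum. With at least 3 UMIs required in the members of each mouse, 468 were higher (2.9%), and counts of higher genes against all other nuclei are given in this form below.

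Genes that myeloid cells share were higher in members by this rule in 18 of 20 cases. Their median log2 ratio to all other nuclei was 2.83 in STZ-HFHC mouse 1 and 3.66 in STZ-HFHC mouse 2, against 0.20 and 0.44 over all genes. Together they summed to 14492 CPM (14059–14935) and 12795 CPM (12215–13396) in members. Kupffer-like nuclei stood at 7704 and 5907 CPM and Gpnmb macrophage-like nuclei at 7471 and 6052 CPM. Ptprc, which encodes the pan-leukocyte phosphatase CD45, had 2104 and 2131 CPM in members and 656 and 584 CPM in Kupffer-like nuclei. Csf1r, the receptor for the macrophage growth factor CSF1, had 209 and 196 CPM. Against either macrophage class, none of these shared genes passed the rule.

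Of 19 genes of classical monocytes outside the rule, 10 were higher in members than in all other nuclei, again beside 2.9% of all genes. They included Vcan, Chil3, Gda, Ms4a4c, Ms4a6c, Clec4e, Clec4d, Lyz2 and Adgre5. Vcan, the matrix proteoglycan versican, had 226 CPM (66 UMIs) in STZ-HFHC mouse 1 and 294 CPM (42 UMIs) in STZ-HFHC mouse 2. Chil3, a chitinase-like protein, had 78.7 and 28.0 CPM. Ly6c2, the surface antigen commonly used to sort classical monocytes, had 5 UMIs in STZ-HFHC mouse 1 and 0 in STZ-HFHC mouse 2 (17.1 CPM, and under the 21 CPM that 3 counts would give). Ly6c2 has a near-identical neighbour in Ly6c1, as the Ms4a4, Sirpb1 and Klra genes named here have close copies, so counts of single members of these families are uncertain. Fibronectin (Fn1), at 421 and 456 CPM, was found about as often as in hepatocyte-rich nuclei. At 1000 UMIs it had a UMI in 33.6% and 21.7% of members and in 30.7% and 24.4% of hepatocyte-rich nuclei.

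Of 18 genes of non-classical monocytes outside the rule, 5 were higher than in all other nuclei, namely Ace, Spn, Itgal, Adgre4 and Itgax. Adgre4, an adhesion G protein-coupled receptor, had 616 and 603 CPM in members and 360 and 257 CPM in Kupffer-like nuclei. Itgal, the alpha chain of the integrin LFA-1 that binds ICAM-1, had 373 and 301 CPM. Nr4a1, the nuclear receptor that non-classical monocytes need, had 75.3 and 77.1 CPM and was not called. The classical list summed to 2583 CPM (2402–2774) and 2293 CPM (2051–2555) in members, and the non-classical list to 2631 (2448–2824) and 2524 (2270–2799). Kupffer-like nuclei had 1207 and 823 CPM of the classical list and 1877 and 1612 CPM of the non-classical list. Hepatocyte-rich nuclei had 987 and 693 CPM of the classical list, led by Fn1, and 933 and 848 CPM of the non-classical list.

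Against Kupffer-like nuclei, 3950 genes had enough UMIs, of which 36 (0.911%) were higher and 22 (0.557%) lower in members, without counting the genes of the rules. Vcan led the higher genes, with 226 and 294 CPM in members against 7.49 CPM (2 UMIs) and 0 UMIs in Kupffer-like nuclei, at least 21-fold higher in STZ-HFHC mouse 2. Within members, Vcan stood at 668 CPM in 1 cluster of 77 nuclei, described below, and at 10.6 CPM in the rest. Tiam1, an exchange factor for the GTPase Rac, had 270 and 238 CPM against 7.49 and 14.0. Gda, guanine deaminase, had 352 and 498 CPM (log2 ratios of 2.43 and 3.84). Mctp1, Camkk2, Sorl1 and Xylt1, which encode a calcium-binding membrane protein, a calmodulin-dependent kinase, a sorting receptor and a xylosyltransferase that starts proteoglycan chains, had log2 ratios between 2.66 and 3.66. Ptafr, the receptor for platelet-activating factor, and Havcr2, the inhibitory receptor TIM-3, were also among the 15 leading genes, with Agpat4, Emb, Dgkg, Ms4a4a, Ms4a4c, Cbfa2t3 and Arhgef37.

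Of the fixed lists, 3 of 9 classical monocyte genes with enough UMIs (Vcan, Gda and Ms4a4c) and 2 of 14 Fc and inhibitory receptors were higher against Kupffer-like nuclei. The latter were Fcgr2b, the inhibitory receptor for IgG, with 113 and 168 CPM against 18.7 and 4.67, and Sirpb1c, with 116 and 112 CPM against 11.2 and 18.7. Cd300lf, a receptor for phospholipids and ceramide, was lower, with 27.4 and 14.0 CPM against 124 and 126. None of 8 non-classical, 17 shared myeloid, 12 integrin or 5 MHC class II genes passed.

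The lower genes were led by Btbd11, with 37.6 and 35.1 CPM in members against 851 and 612 CPM in Kupffer-like nuclei (log2 ratios of -4.44 and -3.99). Dysf, the membrane repair protein dysferlin, had 17.1 and 35.1 CPM against 315 and 365. Ptprm, a receptor phosphatase of cell contacts, had 226 and 175 CPM against 1574 and 1229. Of 4 Kupffer cell markers outside the rules with enough UMIs, Slc40a1, the iron exporter ferroportin, and Ptgs1, cyclooxygenase 1, were lower. Summed over the 9 Kupffer markers that no rule used, members had 301 CPM (241–371) in STZ-HFHC mouse 1 and 301 CPM (218–406) in STZ-HFHC mouse 2. Kupffer-like nuclei had 1484 and 1290 CPM of these 9 genes, and hepatocyte-rich nuclei 234 and 227 CPM. The other 4 markers on the list, Vsig4, Cd5l, Marco and Cd163, helped to define Kupffer-like nuclei, and all 13 together summed to 537 and 421 CPM in members. Cd163, the scavenger receptor for haemoglobin, was at 0 in members of both mice.

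Against Gpnmb macrophage-like nuclei, 4540 genes had enough UMIs, of which 32 (0.705%) were higher and 27 (0.595%) lower in members. Both comparisons use the same members. Adgre4 had 616 and 603 CPM in members (log2 ratios of 2.45 and 2.70), and Itga4, the alpha chain of the integrin VLA-4 that binds VCAM-1, 667 and 561 CPM (2.22 and 2.23). Ms4a6c had 301 CPM in each mouse (2.62 and 3.66). Sirpb1a and Sirpb1b, activating receptors of the SIRP family, were also higher, as were Klra2 and Plbd1 among the leading genes. Among the lower genes, Tmem267 had 0 UMIs in members against 221 and 198 CPM. Of 7 genes of lipid-associated macrophages with enough UMIs outside the rules, 2 were lower, Cd63, a tetraspanin of late endosomes, and Ctsd, the lysosomal protease cathepsin D. None of 5 MHC class II genes passed the rule against this class.

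**Figure D4:**
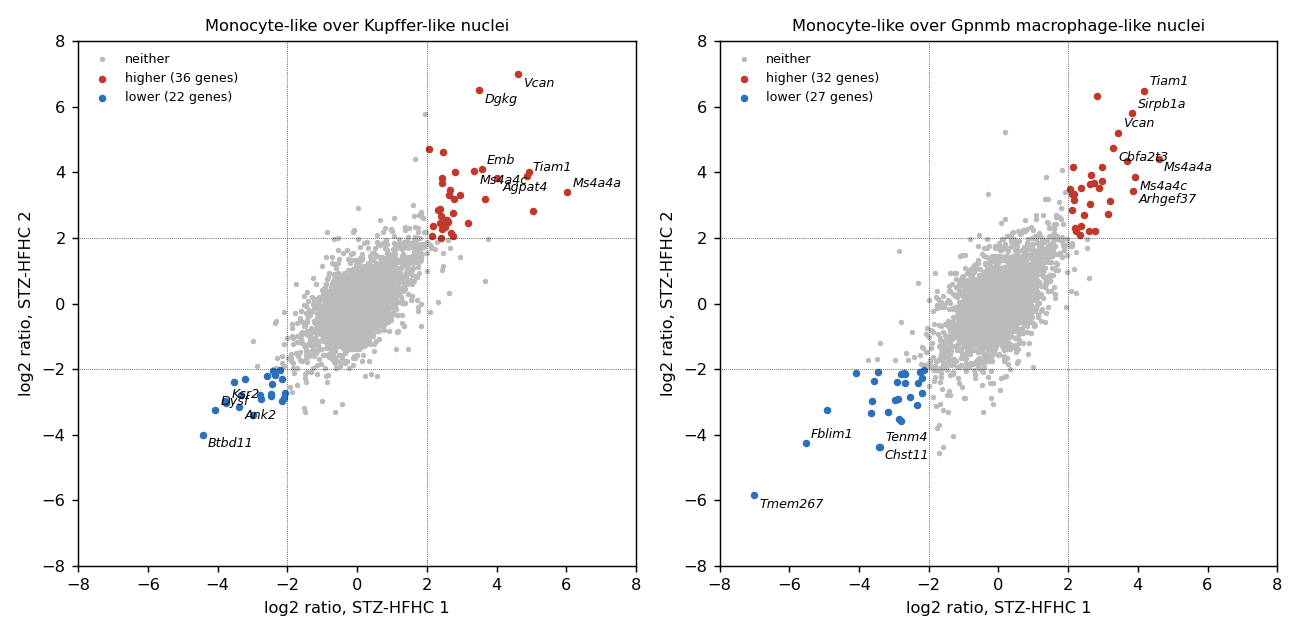
Log2 ratio of each gene in members over Kupffer-like (left) and Gpnmb macrophage-like nuclei (right), STZ-HFHC mouse 1 on the x axis and STZ-HFHC mouse 2 on the y axis, with 0.5 added to each count. Coloured genes passed in both mice, 36 higher and 22 lower on the left, 32 and 27 on the right; values with 0 UMIs in a class depend on the 0.5 added.

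None of 13 macrophage genes with enough UMIs passed the rule against Kupffer-like nuclei, and none of 14 against Gpnmb macrophage-like nuclei. Their median log2 ratios were -1.30 and -1.0 against the former and -1.14 and -0.22 against the latter. Mertk, a receptor for the uptake of dying cells, had 376 and 316 CPM in members, against 1356 and 1126 CPM in Kupffer-like and 1211 and 1247 CPM in Gpnmb macrophage-like nuclei. Adgre1, which encodes the macrophage antigen F4/80, had 243 and 154 CPM, against 558 and 449 in Kupffer-like and 251 and 203 in Gpnmb macrophage-like nuclei. Cd5l, a secreted macrophage protein outside this list that helped to define Kupffer-like nuclei, had 195 and 84.1 CPM, against 752 and 219 in Gpnmb macrophage-like nuclei. The 16 macrophage genes together summed to 2853 CPM (2663–3054) and 2265 CPM (2024–2526), against 6741 and 4973 in Kupffer-like, 6215 and 4490 in Gpnmb macrophage-like and 1091 and 867 in hepatocyte-rich nuclei. Of 15 genes of lipid-associated macrophages, Trem2, Lpl, Lgals3, Mmp12 and Atp6v0d2 helped to define the Gpnmb macrophage-like nuclei. The other 10 summed to 499 CPM (422–587) and 372 CPM (278–486) in members, against 1572 and 1065 in Gpnmb macrophage-like and 256 and 156 in hepatocyte-rich nuclei. Gpnmb itself was counted by the rule and found in 7 and 2 members.

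Ligands and effectors were sparse. Of 13 chemokines with enough UMIs, 2 were higher than in all other nuclei, and Ccl2, the ligand of Ccr2, had 2 UMIs in STZ-HFHC mouse 1 and 0 in STZ-HFHC mouse 2. Of 17 cytokine and inflammasome genes, 6 were higher than in all other nuclei, beside 2.9% of all genes. These were Il1b, Nlrp3, Casp1, Nlrp1b, Aim2 and Nlrc4. None of 4 genes of this list with enough UMIs passed the rule against Kupffer-like nuclei, and none of 4 against Gpnmb macrophage-like nuclei. Il1b, the precursor of interleukin-1β, had 51.3 and 70.1 CPM against 1.53 and 1.75 CPM in hepatocyte-rich nuclei. Aim2, a sensor of cytosolic DNA, had 202 and 126 CPM, and Nlrp3, the sensor of the inflammasome of that name, 71.8 and 84.1 CPM. No UMI of Il6 or Il10 was found in members. Chit1, the chitinase the study is about, had 0 UMIs in members of all 3 libraries, which allows up to 10.3 CPM in STZ-HFHC mouse 1 and 21 CPM in STZ-HFHC mouse 2. Its transcript was thus not detected in members.

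Of 22 coagulation, fibrinolysis and matrix genes outside the rules, 4 were higher than in all other nuclei, namely Vcan, Plaur, Tgfb1 and Tgfbi. Plaur, the receptor for urokinase, had 95.8 and 119 CPM. Tgfb1, the main profibrotic cytokine, had 222 and 210 CPM in members, against 105 and 32.7 CPM in Kupffer-like and 80.2 and 58.9 CPM in Gpnmb macrophage-like nuclei. Tgfbi, a matrix protein induced by TGF-β, had 257 and 224 CPM against 86.2 and 88.8 in Kupffer-like nuclei. Tgfb1 and Tgfbi did not pass the rule of size against either macrophage class. The tissue inhibitor Timp1 and the gelatinase Mmp9 had 0 UMIs.

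Receptors of innate sensing and regulators of the myeloid lineage were higher in part. Of 19 pattern recognition receptors, 9 were higher than in all other nuclei, beside 2.9% of all genes. So were 11 of 21 Fc and inhibitory receptors and 8 of 19 integrin and selectin ligand genes. None of 7 pattern recognition receptors with enough UMIs passed against Kupffer-like nuclei, and none of 8 against Gpnmb macrophage-like nuclei. Cd14, a co-receptor for endotoxin, had 4 UMIs in STZ-HFHC mouse 1 and 0 in STZ-HFHC mouse 2. Of 28 transcription factors, 7 were higher than in all other nuclei, namely Spi1, Irf5, Zeb2, Runx1, Runx2, Runx3 and Ikzf1. None of 22 with enough UMIs passed against Kupffer-like nuclei, and none of 21 against Gpnmb macrophage-like nuclei. Spi1, which encodes PU.1, had 411 and 316 CPM in members, 191 and 136 CPM in Kupffer-like nuclei and 10.3 and 6.11 CPM in hepatocyte-rich nuclei. Of 9 MHC class II genes, 5 were higher (H2-Aa, H2-Ab1, H2-Eb1, Cd74 and Ciita), and the list summed to 1119 CPM (1001–1247) and 876 CPM (730–1044) in members. Kupffer-like nuclei had 431 and 271 CPM of this list and dendritic-like nuclei 1063 and 434 CPM.

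Several defining markers of other blood cells had no UMI in members. Of 12 neutrophil genes, 10 in STZ-HFHC mouse 1 and 11 in STZ-HFHC mouse 2 had no UMI, and the list held 2 UMIs in each mouse. T cell markers summed to 75.3 and 154 CPM, against 212 and 206 CPM in hepatocyte-rich nuclei, and were led by Themis in both, with Cd3e, Cd3d, Cd3g, Cd8a, Trac and Trbc2 at 0. B and plasma cell markers summed to 30.8 and 35.1 CPM, against 15.2 and 26.9 CPM in hepatocyte-rich nuclei, with Cd79a and Cd79b at 0. Natural killer cell markers summed to 383 and 491 CPM, against 946 and 1046 CPM in hepatocyte-rich nuclei. Rora made up 89.3% and 87.1% of the sum in members, and Ncr1, Gzma, Gzmb, Prf1 and Eomes were at 0. None of the genes in these 4 lists was called against all other nuclei.

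Dendritic cell markers and liver RNA were measurable. The 13 dendritic markers summed to 1020 and 1143 CPM in members and to 817 and 847 CPM in hepatocyte-rich nuclei. The 6 of them that no rule used summed to 434 CPM (362–517) and 316 CPM (230–422) in members, against 1191 and 1016 CPM in dendritic-like nuclei and 22.3 and 20.2 CPM in hepatocyte-rich nuclei. Cadm1 gave 46.3% and 55.2% of the members' sum over 13, and Xcr1, Ccr7 and Klk1 were at 0. Cst3 and Wdfy4 were called against all other nuclei, and Wdfy4 had 335 and 259 CPM in members against 1028 and 913 CPM in dendritic-like nuclei. Hepatocyte markers summed to 7448 CPM (7138–7768) in STZ-HFHC mouse 1 and 11239 CPM (10695–11803) in STZ-HFHC mouse 2, against 24006 and 26692 CPM in hepatocyte-rich nuclei. Endothelial markers summed to 499 CPM (422–587) and 547 CPM (432–683) in members, above the 145 and 136 CPM of hepatocyte-rich nuclei, and were led by Mrc1, which macrophages also express. Stellate cell markers summed to 790 and 806 CPM, of which 86.6% and 85.2% was Sox5, against 2325 and 1863 CPM in hepatocyte-rich nuclei. Cell cycle genes summed to 205 and 189 CPM, against 97.5 and 86.5, and none was called. The part of RNA from hepatocytes, endothelial cells or dendritic cells in the members' values was not tested.

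Members were described by which of Ccr2 and Cx3cr1 had a UMI. Ccr2 without Cx3cr1 was found in 53 members of STZ-HFHC mouse 1 (34.4%, 27.0–42.5) and 28 of STZ-HFHC mouse 2 (35%, 24.7–46.5). Cx3cr1 without Ccr2 was found in 23 (14.9%) and 12 (15%), both genes in 17 (11.04%) and 3 (3.75%), and neither in 61 (39.6%) and 37 (46.25%). The shares of the first 2 patterns were nearly equal between the mice. Members with both genes were deeper, with a median of 2401 and 2630 UMIs against 1741 and 1833 in those with Ccr2 alone, and at this depth a gene with no UMI is not shown to be absent.

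Ccr2 and Cx3cr1 were both genes of the rule, so the other genes through which members reached it differ between these groups, and the values are a description. In STZ-HFHC mouse 1, classical monocyte genes summed to 2517 CPM (2216–2848) in members with Ccr2 alone and to 1481 CPM (1143–1888) in those with Cx3cr1 alone. Gda stood at 280 CPM (186–404) in the former and 91.1 CPM (24.8–233, 4 UMIs) in the latter. Vcan had 26 UMIs, or 260 CPM, in members with Ccr2 alone and 0 UMIs in those with Cx3cr1 alone. In STZ-HFHC mouse 2 members with Cx3cr1 alone numbered 12, too few for a level, so these values come from 1 mouse.

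Members were also described by F13a1. As F13a1 was among the genes of the rule and members without it had to reach the rule through other genes, the values below describe the selected nuclei, and their intervals cover counting error over the nuclei of 1 mouse each. F13a1 had a UMI in 75 members of STZ-HFHC mouse 1 (48.7%, 40.6–56.9) and 26 of STZ-HFHC mouse 2 (32.5%, 22.4–43.9). Classical monocyte genes summed to 3228 CPM (2950–3526) and 4007 CPM (3480–4592) in members with F13a1, against 1874 (1654–2116) and 1319 (1094–1577) in those without it. MHC class II genes had the opposite order, with 830 (692–987) and 503 CPM (329–737) against 1436 (1244–1650) and 1088 (884–1325). Dendritic markers stood at 627 and 484 CPM against 1451 and 1517.

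At a log2 ratio of at least 1, 9 of 2189 genes (0.411%) were higher and 8 (0.365%) lower in members with F13a1. The higher genes included Gda (1.41 and 2.05), the lysozyme gene Lyz2 (1.30 and 2.69), Plcb1, a phospholipase C (1.46 and 1.54), and Morrbid, a long non-coding RNA that prolongs the life of short-lived myeloid cells (1.23 and 1.53). The lower genes included H2-Aa (-1.41 and -2.46), Cadm1 (-1.22 and -1.70), Wdfy4 and H2-Eb1.

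Clustering of the 238 members on their 1000 most variable genes gave 3 clusters. Cluster 1 held 147 members, 90 of STZ-HFHC mouse 1 (58.4%), 53 of STZ-HFHC mouse 2 (66.25%) and all 4 of ND. It was led by Ciita, the transactivator of MHC class II genes, with H2-Eb1, H2-Aa and Abcg3. Cluster 2 held 77 members, 55 (35.7%) and 22 (27.5%), and was led by Vcan, Arhgef37, Gas7, F13a1 and Morrbid. Vcan stood at 668 CPM inside it and 10.6 CPM outside, and F13a1 was found in 75.3% of its nuclei. Cluster 3 held 14 members, 9 and 5, and was led by the survival gene Bcl2 with Pag1, Dusp16, Rap1gap2 and Ptpre. All 14 had a UMI of Adgre4 and none had a UMI of Ccr2.

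The 2 larger clusters were made from these genes and so are described without a test. Classical monocyte and MHC class II genes had opposite orders in them in both mice. Classical monocyte genes summed to 1505 and 1130 CPM in cluster 1 and to 4291 and 4808 CPM in cluster 2. MHC class II genes summed to 1722 and 1312 CPM in cluster 1 and to 360 and 152 CPM in cluster 2. Dendritic markers stood at 1343 and 1529 CPM against 567 and 435. Non-classical monocyte genes stood at 2251 (2025–2495) and 2396 CPM (2083–2743) against 2060 (1802–2345) and 1675 (1322–2094). Their intervals overlapped in each mouse. Hepatocyte markers were close, at 7736 and 11033 CPM against 7062 and 11725. Depth was close as well, with a median of 1588 UMIs in cluster 1 and 1821 in cluster 2.

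**Figure D5:**
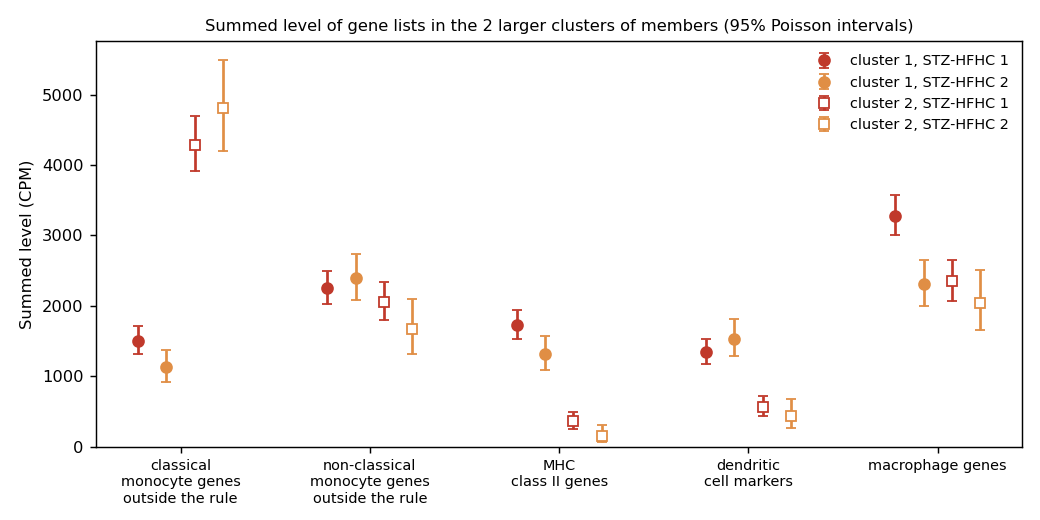
Summed level (CPM) of gene lists in clusters 1 and 2 of the members for STZ-HFHC mouse 1 and STZ-HFHC mouse 2, with exact Poisson 95% intervals. Classical monocyte genes lie at 1130–1505 CPM in cluster 1 and 4291–4808 CPM in cluster 2, and MHC class II genes at 1312–1722 and 152–360 CPM.

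Between the 2 STZ-HFHC mice the members were similar in most genes. Of 2196 genes with at least 50 UMIs in members, 2 (0.0911%) differed at least 4-fold and 69 (3.14%) at least 2-fold. Etnppl, a phospholyase of hepatocytes, was 2.35 lower in STZ-HFHC mouse 1 on the log2 scale and Gstm1, a glutathione transferase, 2.07 higher, and in hepatocyte-rich nuclei the same genes differed in the same direction by 1.5 and 1.61. Rtn1, a reticulon, had 130 CPM in STZ-HFHC mouse 1 and 386 in STZ-HFHC mouse 2, a log2 ratio of -1.56. In hepatocyte-rich nuclei its log2 ratio was -0.79.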

How the data were processed

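Each of the 3 livers gave a separate library of nuclei. The authors deposited raw UMI counts per gene and barcode, made with Cell Ranger 7.0.1 on mm10 per the submitters' processing notes; use of intronic reads and correction for free RNA are not given in the sources used here. Libraries held 77617520, 73942732 and 72934861 UMIs in 9424, 9923 and 11642 barcodes. The members and gene lists were chosen with earlier results of these data known, so no test was run over them.

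Counts were summed per class and library and given as CPM with exact Poisson 95% intervals, and shares with Clopper-Pearson intervals. They cover counting error only. Levels needed at least 20 nuclei, and 3 counts were taken as the most that a count of 0 allows. Genes named were those of the definition, those of the fixed lists, the 15 leading genes in each direction of a comparison and the top 5 of each cluster; genes called within members and between the mice were named after their values were seen. Some genes that meet these rules are not reported here. Members were clustered on 1000 variable genes with 20 components, 15 neighbours and Leiden resolution 0.5. Thinning to 1000 UMIs used a fixed seed. Scrublet called 1 of 28336 nuclei and so did not work; no doublets were removed, and leaving out the top 8% of scores was an alternative (it held 4 members of STZ-HFHC mouse 1 and 1 of STZ-HFHC mouse 2). Comparison of levels with ND within members needed 20 ND members and was not made. The requirement of 3 UMIs was chosen after seeing the data. The procedure was checked on simulated data. Upstream sequences are from RefSeq (GRCm38.p6), in which all 8 defining genes were found. Python 3.11.15, Scanpy 1.11.5, NumPy 2.4.6, SciPy 1.17.1, pandas 2.3.3, leidenalg 0.10.2, igraph 0.11.9 and matplotlib 3.10.9 were used.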

Additional observations from a re-analysis of the deposited data

How the results depend on the processing

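The share of members was higher in both STZ-HFHC mice than in ND, and higher in STZ-HFHC mouse 1 than in STZ-HFHC mouse 2, in 16 of 16 alternatives. The mean STZ-HFHC share ranged from 0.455% with none of the 8 further genes allowed to 2.39% without that limit. With at least 3 different defining genes the ND share was 0.0118% and the ratio of the mean to ND 57.1, and without Cd244a the ratio was 45.9, against 26.1 as reported. Leaving out 1 STZ-HFHC mouse gave a mean of 0.733–1.73% and a ratio of 15.6–36.7.

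Counts of genes depended on the size required. Against Kupffer-like nuclei, 36 higher genes became 20 with at least 100 UMIs, 163 with no minimum, 14 after thinning and 172 at a log2 ratio of 1, and 19–37 with 1 mouse left out. The 22 lower genes became 89 with no minimum and 104 at a log2 ratio of 1, and 18–25 with 1 mouse left out. Against Gpnmb macrophage-like nuclei, 32 higher genes became 21, 114, 14 and 174 under the same 4 settings, and 22–33 with 1 mouse left out. The 27 lower genes became 89 with no minimum, 14 after thinning and 161 at a log2 ratio of 1, and 17–37 with 1 mouse left out. Against all other nuclei, 975 higher genes became 2152 with 1 added, 627 with at least 100 UMIs, 10258 with no minimum, 259 after thinning, 3201 at a log2 ratio of 1, 468 with at least 3 UMIs, and 892–1437 with 1 mouse left out. The 46 lower genes became 7 with 1 added, 819 at a log2 ratio of 1 and 406–446 with 1 mouse left out. Clusters numbered 2 at resolution 0.3 and 6 at resolution 1, against 3.

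Of 90 log2 ratios of named genes, none reversed in the alternatives run, but 50 lost the call after thinning to 1000 UMIs, 49 without STZ-HFHC mouse 1, 16 without STZ-HFHC mouse 2, 27 with at least 100 UMIs, 11 with 1 added, 2 with at least 3 UMIs and 1 without the highest Scrublet scores. A lower size or no minimum could end no call. Of 90 recomputed levels of named genes, 72 moved by less than the spread between the mice and 18 by more, 15 of them with at least 3 different defining genes. No paired analysis was possible because ND is 1 mouse and the groups share no 2 replicate numbers, while classes were compared within each mouse. The comparison of all genes between STZ-HFHC and ND members, with its alternatives, was not run, since ND had 4 members. Depth limits single genes, as 3 counts equal 10.3 CPM in STZ-HFHC mouse 1 and 21 CPM in STZ-HFHC mouse 2.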
